A study of Mus musculus with 15 samples.

Results

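Hearts of male Abcb5 mutant mice were compared with hearts of wild-type males across all genes that the arrays detected. The samples are the 8 heart arrays, 4 from mutant and 4 from wild-type mice, of 15 arrays in the study, and they were chosen by their labels alone. The other arrays were of liver and entered only 1 of the alternative fits. All mice were of the C57BL/6J-Tyr strain and 17 weeks old. The mutant mice were homozygous for the mutation and the others were labelled wild type. The labels name no further allele or treatment and do not say what the mutation does to the gene. Each array held the total RNA of 1 mouse, so the tests measure the spread between mice.

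ABCB5 belongs with P-glycoprotein to the ATP-binding cassette (ABC) transporters, membrane pumps that use ATP to move lipids, drugs and other compounds. The heart is a mixture of muscle cells, which hold most of its RNA and burn mainly fatty acids, and of endothelial cells, fibroblasts, macrophages, nerve endings and the blood in its vessels. Fibroblasts lay down collagen and elastin, and loaded or injured hearts increase these and return to genes of the fetal heart.

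Of the 25697 probes on the array 18392 were above background on at least 3 of the 8 heart arrays and were tested, and the named ones stood for 12493 genes. A level below is the deposited intensity of 1 probe on a linear scale, a change is the mutant minus the wild-type mean on the log2 scale with its standard error (SE, n = 4 each), and a gene rose or fell where limma's adjusted p was below 0.05. Changes and folds come from background-corrected values to which 16 was added before log2. For dim probes they are therefore smaller than the ratio of the levels printed beside them. Of the tested probes 212 rose and 155 fell, which is 1.15% and 0.843%, or 2.0% in both directions. Over genes, with the brightest probe standing for each, 164 rose (1.31%) and 109 fell (0.872%), the median change was 0.01, and 51.8% of all changes were positive. The genotypes did not overlap for 10.1% of probes, with the mutant hearts above in 5.48% and below in 4.59%, and for 10.6% of genes. Of the 367 probes past the threshold 364 did not overlap, so a lack of overlap adds no separate support to a call. In the gene lists 10 genes had a dimmer probe past the threshold, 5 higher and 5 lower, while the counted probe did not pass, and in 1 of them the 2 probes had opposite signs. Higher were Acaa2, Col6a1, Ctsz, Lyz2 and Tbxa2r, and lower were Hspa2, Ifngr2, Pex11a, Prkaca and Tsc22d3. List counts below do not include these probes. The median size of a change past the threshold was 0.68, and 36 probes rose and 39 fell by more than 2-fold. No probe was named Abcb5, so its own level is not reported and gives no check of the genotypes.

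The heart arrays were close to each other in scale, with a median intensity of 8.04 to 8.08 and between 66.9% and 67.0% of probes above background. Heart muscle markers were at the top of the range on all arrays, for example Myh6, the alpha myosin heavy chain, at 21284, 16897, 20813 and 22246 in the mutant and 20889, 21609, 20266 and 38631 in the wild-type hearts. The summed level of 5 liver transcripts was only 81 to 139 in the mutant and 83 to 98 in the wild-type hearts. That of 7 lung and airway transcripts was 51.0, 42.9, 48.9 and 1456 in the mutant and 86.0, 3201, 35.3 and 90.2 in the wild-type hearts. Mutant heart 4 and wild-type heart 2 were thus far above the rest. The 12 atrial muscle genes summed to 37710 in mutant heart 2, against 51076 to 69392 in all other hearts. Whether dissection has a part in this was not tested. Wild-type heart 4 stood apart: on the first principal component (32.4% of the variance) it lay at -32.1, against -11.5 to -7.59 for the other wild-type hearts and 12.4 to 19.1 for the mutant hearts. Its brightest probe reached 55710, against 23656 to 29794 on the other arrays, and its muscle markers lay by a median of 0.405 on the log2 scale above their mean over all hearts. The count of probes past the threshold was 292 without this array, with 147 higher and 145 lower, and it was 198 without wild-type heart 3, 199 without mutant heart 3, 211 without wild-type heart 1 and 226 without mutant heart 1. Of the 273 genes past the threshold 99 passed it whichever single array was left out, and the text dwells on these.

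**Figure D1:**
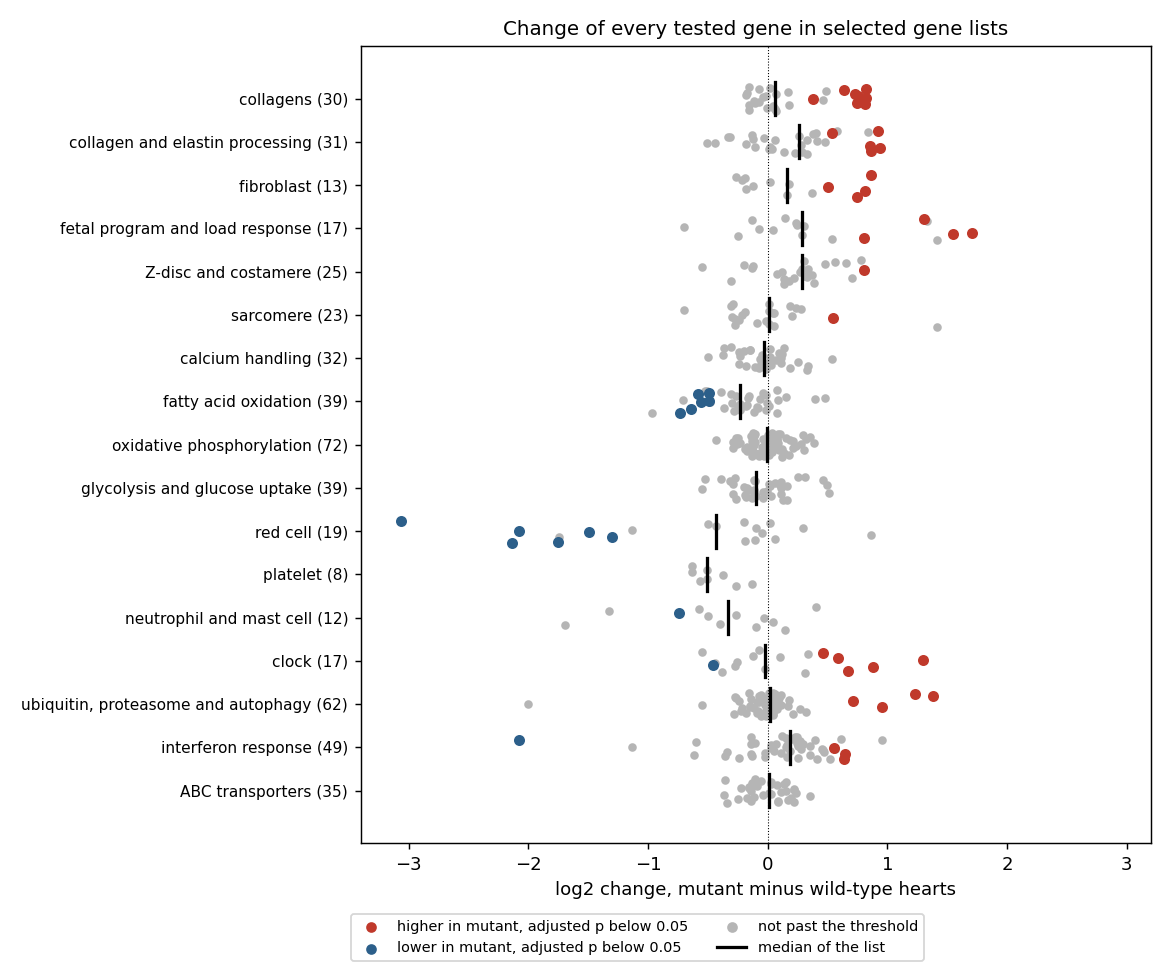
Log2 change, mutant minus wild-type hearts, of every tested gene in 17 gene lists (number of genes in brackets), 1 point per gene, with red for genes that rose, blue for genes that fell, grey for the rest and a black bar at the median of the list. Collagens, collagen processing and the clock hold genes that rose, fatty acid oxidation and red-cell genes hold genes that fell, and calcium handling, oxidative phosphorylation, glycolysis and ABC transporters hold none past the threshold.

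Genes of the collagen matrix were partly higher in the mutant hearts: 8 of 30 collagens and 5 of 31 genes for collagen and elastin processing rose, and none of them fell. Over all genes 1.31% rose. Loxl1, a lysyl oxidase that cross-links elastin, stood at 1045, 1120.0, 1069.8 and 843 in the mutant hearts, against 588, 526, 517 and 481 in the wild-type hearts. Every mutant heart lay above every wild-type heart, and the change was 0.92 ± 0.11 (1.89-fold higher, limma adjusted p = 0.00137). Its relative Lox, which cross-links collagen as well, was at 80.7, 73.2, 100.1 and 65.0 in the mutant and 35.7, 44.4, 22.3 and 42.9 in the wild-type hearts, again without overlap, and rose by 0.85 ± 0.15 (adjusted p = 0.0140). Of the elastic fibre genes, elastin itself (Eln) rose by 0.94 ± 0.21, the microfibril protein Mfap5 by 0.87 ± 0.16 and Emilin1, which sits between elastin and the microfibrils, by 0.54 ± 0.12. Eln was uneven among the mutants, at 206, 128, 216 and 90.3, with heart 4 nearest to the wild-type range of 61.9 to 74.5. Emilin2 and Pcolce2, at -0.51 and -0.44, were the members with the lowest changes and did not pass the test.

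Among the collagens, 3 of 10 fibrillar chains rose, namely Col5a1, which sets the width of collagen fibrils, Col3a1 and Col1a1. Col5a1 was at 542, 535, 549.9 and 424 in the mutant and 336, 331, 279.7 and 243 in the wild-type hearts, a change of 0.75 ± 0.13 (1.68-fold, limma adjusted p = 0.0103). Col3a1 was at 54.0, 43.2, 35.7 and 38.3 in the mutant hearts, against 24.2, 17.8, 8.92 and 15.999 in the wild-type hearts (0.81 ± 0.14, adjusted p = 0.0130), and its other tested probe stood at 0.21 and did not pass. The genotypes did not overlap for either gene. Of 10 chains of basement membranes, the sheets under endothelium and around muscle cells, 4 rose: Col15a1 by 0.64 ± 0.11, Col18a1 by 0.73 ± 0.15, Col4a2 by 0.82 ± 0.17 and Col4a1 by 0.82 ± 0.19. Col4a1 was at 2355, 3282, 2769.9 and 1504 in the mutant and 1317, 1258, 1363 and 1419.5 in the wild-type hearts, with mutant heart 4 only just above the highest wild-type heart. The remaining calls were Col1a1 (0.74) and Col16a1 (0.38), and the median over all 30 collagens was 0.06. A dimmer probe of Col6a1 rose too (0.77 ± 0.10, limma adjusted p = 0.00148), while its counted probe stood at 0.48 without passing.

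Outside the collagens the matrix moved in both directions. Of 45 matrix glycoproteins and proteoglycans Vtn, the adhesion protein vitronectin, rose (0.43 ± 0.09), while Ccn1 and Lamb3 fell. Ccn1, a secreted matricellular protein, was at 51.2, 54.1, 36.9 and 28.1 in the mutant hearts and at 115, 114, 110.0 and 109 in the wild-type hearts, a change of -1.12 ± 0.13 (2.18-fold lower, limma adjusted p = 0.00128). The 4 wild-type hearts were nearly equal and all lay far above the mutants. Ccn1 had 3 tested probes, of which 1 fell, with changes between -1.12 and 0.08. Lamb3, a laminin chain, was at 236, 182, 231 and 314 in the mutant and 478, 359, 419 and 533 in the wild-type hearts (-0.86 ± 0.16). Of 17 proteoglycans, 9 metalloproteinases and 12 ADAMTS proteases none passed the test, and Timp1 was the only 1 of 37 proteases and inhibitors that did by its counted probe. A dimmer probe of the cathepsin Ctsz rose as well (0.51 ± 0.12), while its counted probe stood at 0.47 without passing. Spon2, a secreted matrix protein outside these lists, was among the strongest increases of the heart, at 300.1, 282, 279 and 212 in the mutant and 103, 121, 99.3 and 143 in the wild-type hearts (1.09 ± 0.13, adjusted p = 0.00144). Of 24 integrins and their adaptors 1 rose, Itga11, the alpha chain of a collagen receptor (0.44 ± 0.10).

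Markers of the cells that make this matrix did not move as a block. Of 13 tested fibroblast markers 4 rose (Col3a1, Col1a1, Mfap5 and Thy1), 8 were positive and the median was 0.16. The share that rose was 30.8%, against 1.31% of all genes. Col3a1, Col1a1 and Mfap5 were already counted among the matrix genes above, so they are no separate result. Dcn and Gsn, abundant fibroblast products, stood at -0.27 and -0.22, and the summed level of the list was 8133 to 8694 in the mutant and 8537 to 9816 in the wild-type hearts. Of 7 markers of activated fibroblasts Lox, also counted above, and Meox1 rose. Meox1, a transcription factor of such cells, was at 200.3, 228, 115 and 104 in the mutant and 55.2, 68.8, 62.8 and 74.3 in the wild-type hearts (1.05 ± 0.20). Endothelial markers held no call among 18, with 14 positive and a median of 0.16, of 13 pericyte and smooth muscle markers none passed, and of 9 epicardial markers Upk1b rose (0.77 ± 0.18). The part of cell numbers in the matrix changes was not tested, and in whole-heart RNA fewer cells of a type and less RNA per cell cannot be told apart. The calls that held whichever array was left out were those of Loxl1, Lox, Col5a1, Col15a1, Col3a1, Ccn1 and Spon2. Without mutant heart 3, Col1a1 had an adjusted p of 0.0503 and the collagen count was 3, against 4 or 5 without mutant heart 1 or 2 or without any 1 wild-type heart. The count for collagen and elastin processing was 2 without wild-type heart 3 or mutant heart 1, 2 or 3, and the fibroblast count was 2 without wild-type heart 3 or mutant heart 1 and 1 without mutant heart 3. The calls of Mfap5, Meox1 and Lamb3 were lost in 4, 3 and 2 of the 8 fits without 1 array, and those of Eln, Emilin1, Col4a1, Col4a2, Col18a1, Col16a1, Vtn, Thy1, Itga11 and Upk1b in 6 to 8 of them (highest adjusted p 0.127 for Col4a1).

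**Figure D2:**
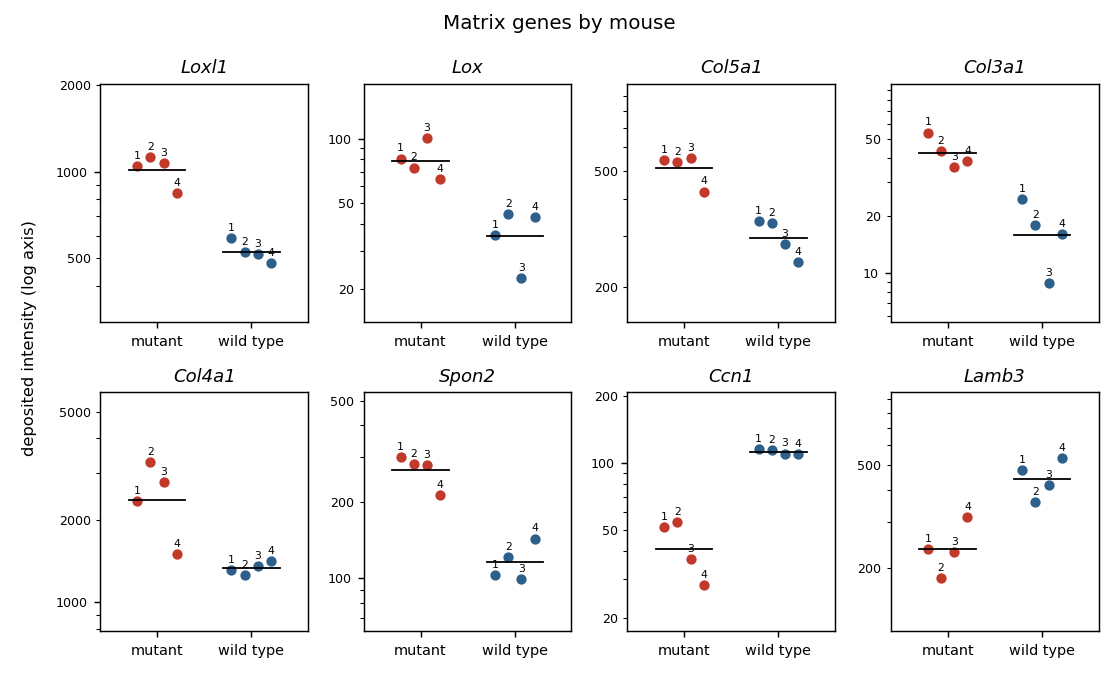
Deposited intensity (log axis) of 8 matrix genes in each heart, mutant on the left and wild type on the right, with the mouse number above each point and a bar at the geometric mean. Loxl1, Lox, Col5a1, Col3a1 and Spon2 are higher in all 4 mutant hearts, and Ccn1 and Lamb3 are lower in all 4, while Col4a1 in mutant heart 4 comes close to the wild-type hearts.

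The contractile apparatus showed little change. Of 23 sarcomere genes only Tpm2, the beta tropomyosin of the thin filament, rose: it was at 355, 342, 446 and 416 in the mutant and 249, 276, 252 and 264 in the wild-type hearts (0.54 ± 0.11, limma adjusted p = 0.0215), and another of its 3 probes passed too. The skeletal actin Acta1 stood at 1.42 and Myh7, the slow myosin heavy chain, at -0.70, with adjusted p = 0.0512 and 0.0929. Acta1 differed widely among the mutants, at 5292, 11334, 8051 and 2953, against 2243, 3117, 2402 and 1646 in the wild-type hearts, so that mutant heart 4 fell inside the wild-type range. Of 18 Z-disc genes, which anchor the thin filaments, 17 had a positive change with a median of 0.32, against 51.8% positive over all genes, but of these only Fhl1, a LIM-domain protein that binds titin, passed the test (0.81 ± 0.18). By value Ankrd23 stood at 0.66, Tcap at 0.34 and Pdlim1 at 0.33. Of the 7 genes of the costamere, which ties the Z-disc to the membrane, 3 were positive, and Dag1, the dystroglycan, was lowest at -0.54. By mouse, the 25 Z-disc and costamere genes had medians around their mean of 0.097, 0.346, 0.152 and -0.096 in the mutant hearts. In the wild-type hearts these were -0.098, -0.128, -0.113 and -0.16. Mutant heart 2 was thus the highest, and mutant heart 4 was close to the wild type.

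Of 17 genes of the fetal program and load response 4 rose, namely Timp1, Lgals3, Fhl1 and Uck2, a pyrimidine salvage kinase (1.31 ± 0.27, lost in 5 of the 8 fits without 1 array). The count was 2 without wild-type heart 1, 3 or 4 or mutant heart 3. All 4 were growth genes (2 of 5) or injury markers (2 of 4), while 1.31% of all genes rose. None of the 4 natriuretic and 4 contractile members passed, with changes from -0.25 to 1.34 and from -0.70 to 1.42.

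Excitation and calcium genes held no call. None of 32 calcium-handling genes, 26 potassium, sodium and chloride channels, 11 intercalated-disc genes and 13 cardiomyocyte markers passed the test, and their medians were -0.03, -0.02, 0.09 and -0.19. Of these Camk2g, a calcium-dependent kinase, was nearest to it (-0.37, adjusted p = 0.0506), followed by Kcnip2, a subunit of the transient outward potassium channel (-0.47, adjusted p = 0.0537). By mouse, the cardiomyocyte markers lay by a median of -0.22 to 0.03 from their mean in the mutant hearts, against -0.07 to -0.03 in wild-type hearts 1 to 3 and 0.405 in wild-type heart 4. Of 25 cardiac transcription factors Myocd, the coactivator myocardin that drives muscle genes together with SRF, fell: it was at 180.1, 218, 217 and 180.3 in the mutant and 396, 427, 286 and 527 in the wild-type hearts, without overlap (-0.95 ± 0.16, 1.93-fold lower, adjusted p = 0.00961). Of its 3 tested probes 1 passed, and the others reached at most -0.03. The call of Myocd held whichever array was left out, that of Tpm2 was lost without wild-type heart 1 or 3 or mutant heart 3 or 4 (adjusted p up to 0.0664), and that of Fhl1 in all such fits but the one without mutant heart 4 (up to 0.115).

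Part of the genes for burning fatty acids fell in the mutant hearts. Of 39 tested genes, each by its brightest probe, 6 fell, none rose and 7 were positive, with a median of -0.23, while 0.872% of all genes fell. The 5 genes of the carnitine shuttle and the 15 genes of beta oxidation were all below 0, with medians of -0.25 and -0.17, and 4 of 5 thioesterase and activation genes were. A dimmer probe went against this: for Acaa2, a thiolase of beta oxidation, it rose by 0.67 ± 0.11 (limma adjusted p = 0.00782), while the counted probe stood at -0.36 (adjusted p = 0.149). For the peroxisomal Pex11a a dimmer probe fell (-0.80 ± 0.16), and the counted probe stood at -0.71 without passing. Both genes were chosen after their values were seen. Acsl6, which activates long-chain fatty acids with coenzyme A, was at 114, 131, 127 and 124 in the mutant and 192, 189, 216 and 185 in the wild-type hearts (-0.58 ± 0.09, limma adjusted p = 0.00775). The groups lay clearly apart for this probe, and its other 2 probes reached at most 0.10 and did not pass. Slc25a20, the carrier that brings acylcarnitines into mitochondria, was at 3016, 3071, 2913 and 3182 in the mutant and 4214, 4366, 4594 and 3983 in the wild-type hearts (-0.49 ± 0.09, adjusted p = 0.0168).

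Further falls in this group were Decr1, which handles unsaturated fatty acids (-0.49 ± 0.11), the mitochondrial thioesterase Acot2 (-0.64 ± 0.13), the mitochondrial uncoupling protein Ucp3 (-0.56 ± 0.13) and Ppargc1b, a coactivator of mitochondrial genes (-0.73 ± 0.16). Ppargc1b was at 374, 686, 487 and 447 in the mutant and 849.7, 737, 927 and 772 in the wild-type hearts, with mutant heart 2 nearest to the wild-type range. The peroxisomal genes did not share the direction, with 4 of 5 positive, and the highest members of the whole group were Rxra at 0.48 and the peroxisomal Acaa1b at 0.39. By mouse, the median of the 39 genes around their mean was -0.22, -0.11, -0.13 and -0.05 in the mutant hearts, against 0.15, 0.12, 0.16 and 0.03 in the wild-type hearts, so mutant heart 4 and wild-type heart 4 were the closest. In lipid storage Dgat2, which makes triglyceride, was the single call of 27 genes (-0.64 ± 0.14). The call of Acsl6 held whichever array was left out, while the number that fell was 2 without wild-type heart 3 or mutant heart 1, 3 without wild-type heart 1 or 2 or mutant heart 3 or 4, and 4 otherwise. Slc25a20 was lost without wild-type heart 3 or mutant heart 3 (adjusted p up to 0.0576), Acot2 without any 1 mutant heart, and Decr1, Ucp3, Ppargc1b and Dgat2 in 7 or 8 of the 8 fits (highest adjusted p 0.123 for Ucp3).

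Oxidative phosphorylation, the tricarboxylic acid cycle and glycolysis held no call. Of 72 subunits of oxidative phosphorylation none passed the test, 34 were positive and the median was -0.002, and none of 19 genes of the tricarboxylic acid cycle and 39 of glucose uptake and glycolysis passed either. The lowest and highest subunits by change were Atp5g2 at -0.43 and Ndufab1 at 0.39. Among ketone genes 1 of 3 rose, Bdh1, which turns the ketone body beta-hydroxybutyrate into acetoacetate. It stood at 982, 761, 1010.5 and 980.3 in the mutant hearts, against 426, 423, 468 and 497 in the wild-type hearts, without overlap (1.01 ± 0.11, 2.01-fold higher, limma adjusted p = 0.000823). Of 16 genes for branched-chain amino acids none passed. Among 61 genes of oxidative stress and detoxification none rose and both calls were glutathione transferases: Gstt1 was at 149.9, 131, 121 and 145 in the mutant and 265, 251, 276 and 302 in the wild-type hearts (-0.91 ± 0.10, adjusted p = 0.000815), and Gsta3 at 218, 187, 221 and 356 in the mutant and 479.6, 782, 465 and 637 in the wild-type hearts (-1.22 ± 0.20, 1 of 2 probes). Of 12 targets of the stress factor NRF2 none passed, with 3 positive. Among 33 phospholipid enzymes, Gdpd3, a lysophospholipase D and the largest increase of all genes, was joined by 1 other call, the secreted phospholipase Pla2g12a (0.54 ± 0.10, lost without wild-type heart 1 or 3 or mutant heart 3, adjusted p up to 0.0585). None of the other 6 glycerophosphodiesterases passed, and the 8 acyltransferases held no call. The calls of Bdh1, Gstt1 and Gsta3 held whichever array was left out.

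Part of the red-cell transcripts fell in the mutant hearts. Of 19 tested red-cell genes 6 fell and none rose, with a median of -0.43 and 9 lower in every mutant than in every wild-type heart. Over all genes 0.872% fell, and 4.59% of all probes were lower in every mutant heart. The red-cell genes that fell span heme synthesis, membrane and clearance of mitochondria. Alas2, the red-cell enzyme that starts heme synthesis, was at 1719, 2033, 1325 and 1342 in the mutant and 5742, 8633, 4645 and 10508 in the wild-type hearts (-2.14 ± 0.23). Fech, which puts the iron into heme, was at 81.7, 100.1, 69.7 and 52.8 in the mutant and 193, 264, 172 and 394 in the wild-type hearts (-1.49 ± 0.22, limma adjusted p = 0.00532), and 2 of its 3 probes fell. In both genes wild-type hearts 2 and 4 were the highest, and the groups did not overlap. The promoter of Alas2 is shown because GATA factors control genes of the red-cell lineage. Capitals mark GATAA read on either strand.
Alas2 promoter, chrX:150547167-150547466, plus strand, GRCm38.p6: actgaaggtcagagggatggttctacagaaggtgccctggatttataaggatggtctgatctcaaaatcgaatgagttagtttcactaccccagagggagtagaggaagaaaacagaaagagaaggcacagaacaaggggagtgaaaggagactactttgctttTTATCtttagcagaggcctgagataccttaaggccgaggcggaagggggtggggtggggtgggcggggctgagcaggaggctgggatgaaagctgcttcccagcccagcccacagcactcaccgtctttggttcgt
Of the 6 red-cell genes that fell, 3 had a promoter in the RefSeq table (250 bases before to 50 after the start), and 2 of these 3 held GATAA, as did 25.4% of all 32851 promoters of that length.

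Bnip3l, a receptor for the removal of mitochondria, was at 822, 904, 628 and 826 in the mutant and 1672, 2394, 1347 and 2773 in the wild-type hearts (-1.30 ± 0.20). E2f2, a cell cycle factor with a known part in red-cell maturation, was at 26.7, 60.9, 32.4 and 22.4 in the mutant and 198, 267, 144 and 417 in the wild-type hearts (-2.30 ± 0.27, 4.93-fold lower, limma adjusted p = 0.00122). Hbq1a, a theta globin outside the list, was at 15.8, 22.8, 10.4 and 10.6 in the mutant and 74.8, 100.3, 55.5 and 113 in the wild-type hearts (-1.63 ± 0.18). All 4 wild-type hearts lay above all mutant hearts in these 3 genes, with wild-type hearts 2 and 4 at the top. The mature globins were less clear: Hbb-bt fell (-3.06), Hba-a1 stood at -0.43 and Hbb-b2 at 0.87 (adjusted p = 0.294 and 0.704). Globin genes are near-identical copies, and which copy a probe reads is uncertain.

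Markers of other blood cells were read beside the red-cell genes. All 8 platelet markers were below 0, with a median of -0.51, but none passed the test: Gp9 stood at -0.63, Gp1bb at -0.63, Gp5 at -0.57 and Pf4 at -0.13. By mouse the platelet median around the mean was 0.23, 0.00, -0.96 and -0.24 in the mutant hearts and 0.11, 0.30, -0.04 and 0.55 in the wild-type hearts, which overlap. Of 12 neutrophil and mast cell markers S100a8, a neutrophil protein, was at 128, 74.4, 173 and 135 in the mutant and 236, 690.4, 147 and 1457 in the wild-type hearts, so wild-type hearts 2 and 4, again, were the highest (-1.70, adjusted p = 0.138). Mcpt4, a mast cell protease, did fall: it was at 9.67, 9.16, 8.64 and 10.5 in the mutant and 29.3, 36.1, 23.3 and 25.1 in the wild-type hearts (-0.74 ± 0.10, limma adjusted p = 0.00305). The other mast cell proteases Cpa3 and Cma1 stood at -0.39 and -0.27. The summed level of the red-cell list was 28957 to 34084 in the mutant and 41116 to 81081 in the wild-type hearts, and that of the neutrophil and mast cell list was 199.7 to 384 in the mutant and 286 to 2183 in the wild-type hearts. Whether the amount of blood left in the hearts has a part in the red-cell result was not tested. The calls of Alas2, Fech, Ube2l6, Bnip3l, Hbb-bt, E2f2, Hbq1a and Mcpt4 held whichever array was left out, so also without wild-type heart 4, where 5 red-cell genes fell. Slc4a1, the anion exchanger of red cells, lost its call (-1.76) without wild-type heart 2 or 4 or without any 1 mutant heart (adjusted p up to 0.118).

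**Figure D3:**
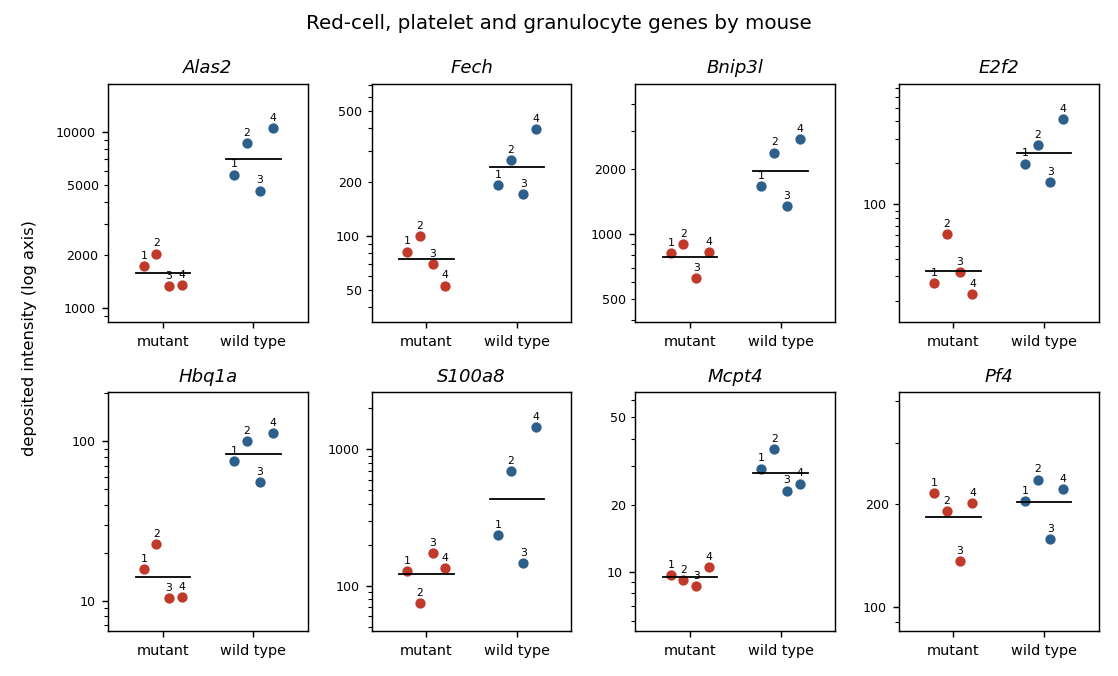
Deposited intensity (log axis) of 5 genes active in the red-cell lineage, a neutrophil gene (S100a8), a mast cell gene (Mcpt4) and a platelet gene (Pf4) in each heart, mutant on the left and wild type on the right, with mouse numbers and the geometric mean as a bar. The red-cell genes and Mcpt4 are lower in all 4 mutant hearts, wild-type hearts 2 and 4 are highest for red-cell genes and S100a8, and Pf4 overlaps.

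Genes of the circadian clock, a loop in which CLOCK and its partner BMAL1 switch on their own repressors, moved in both directions. Of 17 clock genes 5 rose and 1 fell, a share of 35.3% against 2.19% of all genes, with a median of -0.03. Of 8 repressors 3 rose, of 4 activators 1 rose, and of 5 output genes 1 rose and 1 fell. Nr1d1, the nuclear receptor REV-ERB alpha that represses Bmal1, was at 330.2, 283, 280.5 and 205 in the mutant and 94.1, 88.9, 146 and 78.7 in the wild-type hearts (1.30 ± 0.17, 2.45-fold higher, limma adjusted p = 0.00248), and both its probes rose. Ciart, a repressor that acts on CLOCK and BMAL1, was at 256, 250.3, 296 and 237 in the mutant and 119, 134, 167 and 115 in the wild-type hearts (0.88 ± 0.12, adjusted p = 0.00276), with both probes past the test as well. All mutant hearts lay above all wild-type hearts in both genes, and wild-type heart 3 was the highest of its group in both. The promoter of Ciart is shown because it holds 3 E-boxes, CACGTG in capitals, the palindrome that CLOCK and BMAL1 bind.
Ciart promoter, chr3:95882179-95882478, minus strand, GRCm38.p6: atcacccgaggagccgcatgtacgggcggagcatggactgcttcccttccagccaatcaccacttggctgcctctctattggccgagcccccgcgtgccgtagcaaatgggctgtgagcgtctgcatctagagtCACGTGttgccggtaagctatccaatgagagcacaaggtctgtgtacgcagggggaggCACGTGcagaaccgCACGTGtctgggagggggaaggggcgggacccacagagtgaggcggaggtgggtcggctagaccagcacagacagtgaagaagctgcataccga
They begin at -116, -58 and -44 relative to the start of transcription. At least 1 E-box was in 7.15% of all promoters of this length and 3 or more were in 0.0883%, and of the 5 clock genes past the test that had a promoter in the RefSeq table only Ciart held any.

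The other clock calls were smaller. Bhlhe40, a repressor, rose by 0.58 ± 0.13, Clock itself by 0.47 ± 0.10 in 1 of its 2 probes, and the output factor Dbp by 0.67 ± 0.14. Dbp was at 3474, 3709, 2967 and 3848 in the mutant and 2271, 2284, 2623 and 1651 in the wild-type hearts. Nfil3, which binds the same sites as DBP and opposes it, fell: it was at 167, 164, 167 and 180.0 in the mutant and 245, 233, 208 and 278 in the wild-type hearts (-0.46 ± 0.10). Dbp was higher and Nfil3 lower in all mutant hearts, without overlap. Of the 5 output genes only Dbp had a positive change, and their median was -0.28 and the lowest change -0.55. The labels give no time of day at which the hearts were taken, so its part in these differences was not tested. The calls of Nr1d1 and Ciart held whichever array was left out, and those of Dbp, Bhlhe40, Clock and Nfil3 were lost in 5, 6, 7 and 7 of the 8 fits (adjusted p up to 0.115 for Bhlhe40). The number that rose was 2 without wild-type heart 2 or without mutant heart 1, 2 or 4, and 3 without wild-type heart 1 or 4.

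**Figure D4:**
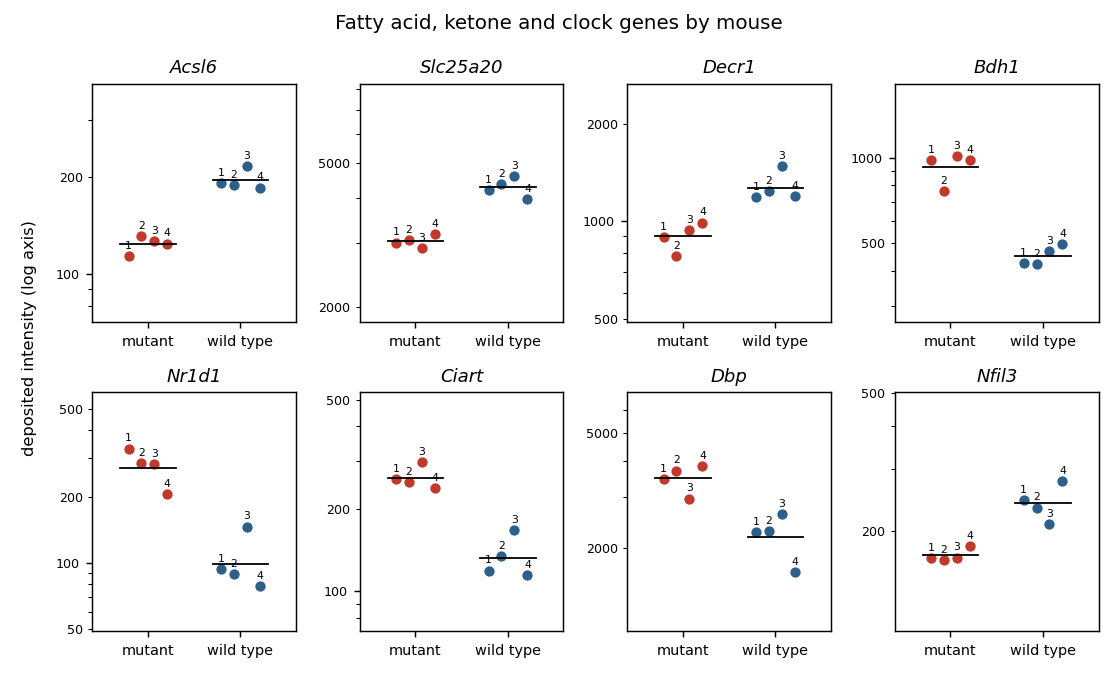
Deposited intensity (log axis) of 3 fatty acid oxidation genes, the ketone gene Bdh1 and 4 clock genes in each heart, mutant on the left and wild type on the right, with mouse numbers and the geometric mean as a bar. Acsl6, Slc25a20, Decr1 and Nfil3 are lower and Bdh1, Nr1d1, Ciart and Dbp are higher in all 4 mutant hearts.

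Secreted inhibitors of Wnt signalling changed in opposite directions. Wif1, which binds Wnt proteins, was at 29.5, 27.7, 31.8 and 37.2 in the mutant and 65.1, 68.4, 63.6 and 52.0 in the wild-type hearts (-0.69 ± 0.10, limma adjusted p = 0.00532). Sfrp5, a decoy receptor, was at 11.2, 12.0, 10.6 and 11.6 in the mutant hearts, all 4 within a narrow range, and at 20.5, 27.4, 42.7 and 37.4 in the wild-type hearts (-0.74 ± 0.13). Its relative Sfrp1 rose by 1.12 ± 0.24, at 68.5, 22.3, 89.1 and 74.8 in the mutant and 19.9, 16.2, 16.1 and 16.9 in the wild-type hearts, where mutant heart 2 was close to the wild type. None of the other 17 Wnt genes and none of 13 Notch genes passed the test. Of 38 genes of TGF-beta and BMP signalling only Bmp4, a ligand, fell (-0.47 ± 0.09). Of 52 growth factor genes 3 rose (5.77%, against 1.31% of all genes). They were Aplnr, the apelin receptor (0.69 ± 0.14), the receptor Egfr (0.55 ± 0.11) and its feedback inhibitor Errfi1 (0.71 ± 0.15). Egfr had 4 tested probes, of which 1 passed. In the vasoactive list, 27 genes of renin-angiotensin, natriuretic and vasoactive peptides, 14.8% passed. Aplnr and Uts2b, a relative of urotensin, rose (1.61 ± 0.32 for Uts2b). Edn1, the vessel constrictor endothelin, fell (-0.50 ± 0.11), as did Ramp1, a subunit of the receptor for the dilator CGRP (-0.55 ± 0.12).

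Dbh, the enzyme of sympathetic nerve endings that makes noradrenaline, was lower. It stood at 18.4, 20.3, 21.5 and 23.7 in the mutant hearts, against 41.3, 46.4, 57.1 and 46.9 in the wild-type hearts, without overlap (-0.75 ± 0.10, limma adjusted p = 0.00256). It was the only 1 of 6 tested nerve and Schwann cell markers past the test: Npy, a peptide of the same nerve endings, stood at -0.57, and the Schwann cell genes Mbp and Pmp22 at -0.19 and 0.07. Of 33 genes of adrenergic and G-protein signalling none beside Aplnr passed. The calls of Wif1, Sfrp5 and Dbh held whichever array was left out. Bmp4 was lost without wild-type heart 1 or 2 or mutant heart 2 (adjusted p up to 0.0569), and Sfrp1, Aplnr, Egfr, Errfi1, Uts2b, Edn1 and Ramp1 were lost in 5 to 7 of the 8 fits (up to 0.104 for Ramp1). The vasoactive list held no call without wild-type heart 2, 1 higher and 1 lower without mutant heart 3, only 1 lower without wild-type heart 4 or mutant heart 4, and only 1 higher without any other single array. The growth factor count was 0 without wild-type heart 1 or mutant heart 1 and 1 without wild-type heart 3 or mutant heart 2, 3 or 4.

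A few genes of protein degradation rose. Of 28 proteasome subunits 2 rose (7.14%, against 1.31% of all genes), both catalytic-core beta subunits, and the median of all was 0.04. Psmb1 was at 401, 382, 465 and 543 in the mutant and 185, 147, 212 and 177 in the wild-type hearts (1.23 ± 0.13, 2.34-fold higher, limma adjusted p = 0.000774). Psmb5, which carries the chymotrypsin-like activity, was at 372, 239, 246 and 200.3 in the mutant and 117, 147, 115 and 117 in the wild-type hearts (0.96 ± 0.16). Neither gene overlapped between the genotypes, while Psmd8, a lid subunit, stood at -2.01 without passing (adjusted p = 0.0633). Of 23 autophagy genes Atg3 and Atg13 rose (8.7%). Atg3, the enzyme that joins LC3 to lipid, was at 37.0, 51.1, 12.2 and 44.2 in the mutant hearts, against -0.416, 0.641, 3.76 and 1.23 in the wild-type hearts. It was above background on 4 of 4 mutant but only 1 of 4 wild-type arrays, so the fitted change (1.38 ± 0.21) rests on wild-type levels that were mostly not measured, and it did not pass with values floored at 16 (1.09, limma adjusted p = 0.271). Atg13, of the kinase complex that starts autophagy, was at 261, 303, 372 and 290.2 in the mutant and 180.3, 148, 175 and 217 in the wild-type hearts (0.71 ± 0.13). None of 11 muscle ubiquitin ligases passed.

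Of 18 p53 targets Cdkn1a, the cell cycle inhibitor p21, was the only one past the test. It was at 264, 275, 273 and 137 in the mutant and 67.2, 99.3, 61.7 and 103 in the wild-type hearts (1.31 ± 0.21, 2.49-fold higher, limma adjusted p = 0.00775), all its 3 probes rose, and mutant heart 4 was lower than the other mutants. Of 38 cell cycle genes E2f2 and Cdc25b, the phosphatase that starts mitosis, fell (5.26%, against 0.872% of all genes). Cdc25b was at 5.39 to 11.8 in the mutant and 18.9 to 40.1 in the wild-type hearts (-0.87 ± 0.15). In the integrated stress list of 20 genes Chac1, which breaks down glutathione, rose (1.13 ± 0.22), and none of 17 genes of the unfolded protein response passed. Of 41 heat-shock genes 35 were positive with a median of 0.14, and 1 passed, the cochaperone Dnaja2 (0.62 ± 0.12). Of 63 ribosomal protein and translation genes Rpl22 and Rps15a fell (-0.40 ± 0.09 and -0.80 ± 0.19), which is 3.17%. The calls of Psmb1, Psmb5, Atg3, Cdkn1a and Cdc25b held whichever array was left out. Atg13 was lost without wild-type heart 3 or mutant heart 3 (adjusted p up to 0.0508), Chac1 without wild-type heart 1 or mutant heart 2 or 3 (up to 0.0640), and Dnaja2, Rps15a and Rpl22 in 4, 6 and 8 of the 8 fits (up to 0.125 for Rps15a).

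**Figure D5:**
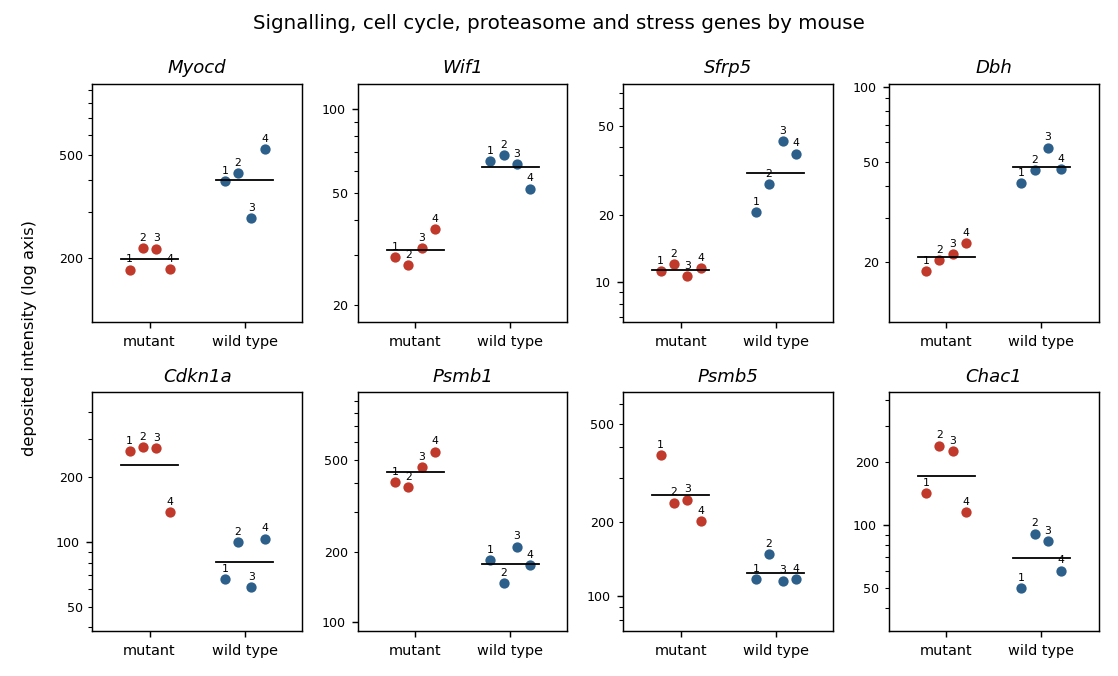
Deposited intensity (log axis) of the coactivator Myocd, the Wnt inhibitors Wif1 and Sfrp5, the nerve enzyme Dbh, the cell cycle inhibitor Cdkn1a, the proteasome subunits Psmb1 and Psmb5 and the stress gene Chac1 in each heart, mutant on the left and wild type on the right, with mouse numbers and the geometric mean as a bar. The first 4 are lower and the last 4 higher in all 4 mutant hearts.

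Few immune genes passed the test, and over all genes 2.19% did. Of 23 macrophage and monocyte markers Lgals3 was the only call by the brightest probe, and a dimmer probe of Lyz2, a lysozyme, rose as well (0.77 ± 0.16, against 0.06 for the counted probe). All 8 markers of resident macrophages had a positive change, with a median of 0.08. The summed level of the whole list was 7077 to 7585 in the mutant and 5855 to 7907 in the wild-type hearts. Of 60 cytokine and chemokine genes 2 rose (3.33%), Ackr2, a decoy receptor that removes chemokines (0.51 ± 0.10), and the chemokine Ccl6 (0.43 ± 0.10). Of 27 complement and coagulation genes none passed. In the interferon list of 49 genes 3 rose and 1 fell (8.16% in all), 35 were positive and the median was 0.19. The fall was the largest change of the list: Ube2l6, a conjugating enzyme for the ubiquitin-like protein ISG15 that is also in the red-cell list, was at 192, 178, 117 and 118 in the mutant and 507, 778, 422 and 1298 in the wild-type hearts (-2.08 ± 0.29, limma adjusted p = 0.00289), without overlap. Dhx58, a helicase of the RNA-sensing pathway, was at 23.3, 25.0, 20.2 and 23.5 in the mutant and 10.2, 10.8, 2.69 and 9.05 in the wild-type hearts (0.65 ± 0.11, limma adjusted p = 0.0140). Oas2 and Parp14 rose too (0.64 ± 0.13 and 0.56 ± 0.11). Gbp10, a guanylate-binding protein, was at 35.7, 40.0, 35.4 and 38.9 in the mutant and 15.5, 18.9, 13.4 and 15.1 in the wild-type hearts, with every mutant heart at about the same level (0.72 ± 0.09, adjusted p = 0.00196). Guanylate-binding proteins are close relatives, and 1 of 5 tested members rose. Of 10 class I genes H2-T10 fell and H2-T23 rose (-1.85 and 0.54 ± 0.11), and another probe of H2-T23 rose too (0.75 ± 0.14). Class I genes are related in sequence, and whether each probe reads only its named gene was not tested. The calls of Ube2l6, Dhx58, Gbp10 and H2-T10 held whichever array was left out, and those of Oas2, Parp14, H2-T23, Ackr2 and Ccl6 were lost in 5 to 7 of the 8 fits (adjusted p up to 0.110 for Ccl6). Only 1 interferon gene rose without wild-type heart 1 or mutant heart 1, 3 or 4.

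The strongest increases outside the lists included the following genes. Creb3l2, a membrane-bound transcription factor that is known in mice to raise secretory capacity in cartilage, was at 131, 113, 158 and 139 in the mutant and 58.1, 51.9, 38.8 and 43.9 in the wild-type hearts (1.21 ± 0.12, 2.31-fold higher, limma adjusted p = 0.000524). Kdelr3, a receptor that returns chaperones to the endoplasmic reticulum, was at 107, 95.7, 107 and 118 in the mutant and 57.4, 43.4, 59.7 and 57.1 in the wild-type hearts (0.79 ± 0.11). The mutant hearts lay above the wild-type hearts by a wide margin in both genes. Hr, a corepressor of nuclear receptors under thyroid hormone control, was at 472, 568, 505 and 616 in the mutant and 248, 279, 282 and 237 in the wild-type hearts (0.99 ± 0.11), with both probes past the test. Nr1h3, the oxysterol receptor LXR alpha, was at 339.7, 322, 403 and 379 in the mutant and 209, 232, 227 and 200.1 in the wild-type hearts (0.69 ± 0.10, 1 of 2 probes). In the lists none of 14 sterol synthesis genes and none of 4 thyroid hormone targets passed. Ang, a secreted ribonuclease, rose by 1.25 ± 0.17, Diablo, a mitochondrial promoter of cell death, by 0.76 ± 0.11, Paxx, a DNA repair factor, by 0.76 ± 0.11, Inpp5f, a phosphoinositide phosphatase, by 0.73 ± 0.11, and Cenpq, a centromere protein, by 0.75 ± 0.09.

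On the other side Angptl7, a secreted angiopoietin-like protein, was at 67.3, 28.6, 56.0 and 44.8 in the mutant and 219, 164, 149 and 179.9 in the wild-type hearts (-1.56 ± 0.17, 2.95-fold lower, limma adjusted p = 0.000815). Stk35, a nuclear kinase, was at 11.005, 17.0, 9.54 and 16.8 in the mutant and 75.7, 63.8, 84.3 and 46.6 in the wild-type hearts (-1.42 ± 0.14). Neither overlapped between the genotypes. Further falls were Osbpl3, an oxysterol-binding protein relative (-0.79 ± 0.11), Cdkal1, a tRNA-modifying enzyme (-0.79 ± 0.11), Adgrl1, an adhesion receptor (-0.78 ± 0.10), Smtnl2, a smoothelin-like protein (-0.73 ± 0.10), the histone H4c6 (-1.03 ± 0.13) and Kdm8 (-0.84 ± 0.10, 1 of 2 probes). Aqp9, a channel for water and glycerol, was not well above background on any mutant array and was above it on 4 of 4 wild-type arrays, which makes it at least 1.59-fold lower (adjusted p = 0.0103), the mutant level being bounded by the lowest signal well above background. The calls named in the last 2 paragraphs held whichever array was left out.

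Relatives of the mutated gene held no call. None of 35 tested ABC transporters passed the test, 18 were positive, and the range was -0.37 to 0.36. Of the 8 of the ABCB branch Abcb9 stood at 0.36, Abcb4 at 0.23 and Abcb1b at 0.13. In the order of genes along the chromosome in RefSeq, the nearest tested genes were 15 on one side of Abcb5 and 1 on the other, and 3 of these 16 passed the test. All 3 fell: Zfp386, a zinc finger protein, was at 57.4, 51.6, 48.3 and 52.5 in the mutant and 124.6, 134, 133 and 113 in the wild-type hearts (-1.03 ± 0.09, limma adjusted p = 0.000230), while its other probe stood at -0.31 and did not pass. Rapgef5, an exchange factor for Ras-like GTPases, was at 29.2, 52.4, 64.7 and 74.1 in the mutant and 118, 97.5, 146 and 124 in the wild-type hearts (-0.96 ± 0.18). Esyt2, which tethers the endoplasmic reticulum to the cell membrane, was at 30.7, 33.0, 26.9 and 27.3 in the mutant and 51.4, 51.4, 53.7 and 44.8 in the wild-type hearts (-0.52 ± 0.09), and its other probe stood at -0.30 and did not pass. The genotypes did not overlap in any of the 3. They make 18.8% of these neighbours, while 11 of 382 tested genes on the same chromosome (2.88%) passed. Whether DNA linked to Abcb5 has a part in these falls was not tested. The call of Zfp386 held whichever array was left out, while Esyt2 was lost without mutant heart 3 (adjusted p = 0.0503) and Rapgef5 without wild-type heart 1 or 3 or mutant heart 2 (up to 0.0668).

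Large gene families were counted beside these lists. Of 255 solute carriers 4 rose and 4 fell, of 223 zinc finger proteins 2 fell, of 48 histones 1 rose and 1 fell, and of 58 potassium channel genes, 54 Rab GTPases, 68 mitochondrial ribosomal proteins, 39 Nduf subunits and 38 cytochromes P450 none passed the test. The shares past the test were 3.14% of solute carriers, 0.897% of zinc finger proteins and 4.17% of histones, against 2.19% of all genes. The medians of these families lay between -0.03 and 0.04.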

How the data were processed

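RNA of whole hearts was hybridised as labelled cRNA to 1-colour Illumina bead arrays. The values are the intensity per probe in the authors' deposited table. Per the submitters' processing notes GenomeStudio 2011.1 was used, and the normalization is not given in the sources used here. Heart arrays had medians of 8.04 to 8.08 and values below 0, while liver arrays had medians of 113.1 and none below 0. Heart values may thus have been background-subtracted and scaled apart from liver, which the sources do not state. To the heart values normexp was applied with the mode and spread of the low values of each array, 16 was added and log2 taken. Probes above background (p below 0.05) on at least 3 of 8 heart arrays were tested with limma 3.58.1 in R 4.3.3 (lmFit, eBayes), mutant minus wild type, with Benjamini-Hochberg adjustment over all tested probes. In lists the probe with the highest mean stands for its gene. Of 25697 probes 23978 had 1 gene symbol, none had several and 1719 were unnamed here.

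The members, gene lists and tests were chosen with earlier results of these data known. Open to be named, though not all are, were list members past the threshold, the 4 smallest p-values of lists with fewer, members of opposite sign at the extremes, cell type markers, and the 15 genes with the smallest p per direction outside the lists. The fit was tested on simulated data with known changes. The number of arrays limits the precision. A table of values before normalization, with 15 columns that could not be matched to samples, was not used. Replicate numbers came from different mice. After the mean of each genotype was subtracted per probe, same-numbered hearts correlated at -0.11 to -0.05, so they do not pair. Promoters are from RefSeq on GRCm38.p6.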

Additional observations from a re-analysis of the deposited data

Results flagged for a closer look

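In 18 of 280 groups of 4 hearts, for 140 named genes, 1 heart lay apart by Dixon's test, which chance does in about 1 of 20 groups. Values are log2 intensities after normexp, each with the nearest other heart of its group. In the mutant hearts, heart 2 was low for Ang (6.24, against 6.80), Bdh1 (9.61, against 9.96) and Lgals3 (7.98, against 8.78), and high for Emilin2 (8.19, against 7.47). Mutant heart 4 was low for Cdkn1a (7.28, against 8.14), Col5a1 (8.79, against 9.11) and Mfap5 (7.89, against 8.54). Psmd8 was high in mutant heart 1 (8.65, against 6.01). In the wild-type hearts, heart 4 was high for Gp1bb (6.74, against 5.91), Hba-a1 (15.77, against 14.86) and Myh6 (15.24, against 14.40). Wild-type heart 3 was high for Acot2 (8.03, against 7.48) and Dcn (12.79, against 12.50). Wild-type heart 2 was low for Kdelr3 (5.95, against 6.24) and Myh7 (6.74, against 7.49), and high for Mbp (6.30, against 6.04) and Psmb5 (7.37, against 7.08). Thy1 was high in wild-type heart 1 (8.04, against 7.91).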

How the results depend on the processing

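As reported, 367 probes passed the threshold, with 212 higher and 155 lower in the mutant hearts. The count was 576 (329 higher, 247 lower) with an offset of 50, 130 (80 higher, 50 lower) with values floored at 16 and no background correction, 233 (131 higher, 102 lower) with the offset but no normexp, 243 (142 higher, 101 lower) with no filter on dim probes, 608 (338 higher, 270 lower) with a trended and robust variance, 573 (305 higher, 268 lower) with all 15 arrays in one fit, and 742 (414 higher, 328 lower) at an adjusted p below 0.1. Without single arrays it ranged from 198 to 292, with 96 to 155 higher and 91 to 145 lower. With the replicate number as a block it was 240 (124 higher, 116 lower), of which 217 were shared with the fit without the block; the numbers do not pair the mice. Quantile normalization gave 372, array weights 488 and a stricter filter on dim probes 450. The list counts moved as well over the other settings with all 8 hearts, including an average over the probes of each gene. The number that rose was 1 to 8 for collagens, 1 to 6 for collagen and elastin processing, 0 to 4 for fibroblast markers and 1 to 5 for the clock. The number that fell was 2 to 12 for fatty acid oxidation and 1 to 8 for red-cell genes. The cause of these shifts was not tested. Of the 273 genes called, 99 kept the call without any single array, 49 kept it in every setting run, and none changed sign when an array was left out. The genes that turned sign had not passed the test: without single arrays Acaa1b ranged from -0.082 (without mutant heart 4) to 0.76, Gsn from -0.57 to 0.12 (without mutant heart 2), Hbb-b2 from -0.076 (without wild-type heart 3) to 1.59, Lyz2 from -0.019 (without wild-type heart 1) to 0.17 and Pmp22 from -0.0042 (without wild-type heart 4) to 0.14. Of the heart values 27.7% to 27.8% were below 0.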
